A study of Mus musculus with 20 samples.

Results

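The 9 genes described here are markers of bile duct cells and of liver progenitor cells, namely Spp1, Krt19, Krt7, Sox9, Epcam, Cd24a, Prom1, Ly6d and Cftr. They were chosen by their symbols, and each matched 1 of the 55421 genes in the count table. All 9 had at least 10 counts in total over the 20 libraries and entered the test of 22867 genes. Expression was measured by RNA-seq of polyadenylated RNA from whole liver. Wildtype C57BL/6 mice, labelled female, received at 6 months of age an AAV8 virus carrying the Cas9 of Staphylococcus aureus under the Tbg promoter and a guide RNA against either HIRA, a histone H3.3 chaperone, or Rosa26, the control locus. The text of the study names male mice for this time course and a figure legend female mice. Livers were taken 3 weeks or 6 months after injection, which gave 4 groups of 5 animals (Rosa26 guide at 3 weeks, HIRA guide at 3 weeks, Rosa26 guide at 6 months and HIRA guide at 6 months). All groups thus carried the virus and the nuclease. The Tbg promoter is active in hepatocytes, so cells that were already bile duct cells at injection were not the intended target of the nuclease.

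Bile ducts are lined by cholangiocytes, which arise in the embryo from the same precursor as hepatocytes under Notch signalling and carry simple-epithelium keratins, the transcription factor SOX9 and the adhesion protein EPCAM. In the adult liver these cells are few beside hepatocytes, and after chronic injury duct-like progenitor cells can expand or hepatocytes can take on duct genes. The comparison of guides asks whether the liver RNA held more of these duct genes after Hira was targeted in hepatocytes. In bulk RNA, a change in the number of cells of a type and a change in RNA per cell cannot be told apart.

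Total counts per library ran from 19916430 to 24079736. In CPM, counts scaled to a common library size, the sum of 12 hepatocyte markers ran from 88984 to 173453 over the libraries, which were labelled liver. Hira had 128, 171, 158, 134 and 136 counts in the Rosa26 group at 3 weeks against 126, 127, 90, 104 and 87 with the HIRA guide, and 132, 157, 141, 131 and 105 against 136, 109, 136, 112 and 128 at 6 months. Its log2 fold change was -0.48 at 3 weeks (adjusted p = 0.197, edgeR) and -0.10 at 6 months (adjusted p = 0.794, edgeR). Every HIRA library lay below every control at 3 weeks, and the groups overlapped at 6 months. Replicate 5 of the HIRA group at 6 months had 6.51 CPM of Hira, against 5.32, 4.96, 5.64 and 5.48 in its other libraries. These are RNA values and do not measure the protein. The study reports a loss of HIRA protein by western blot in mice given this guide. The library labelled replicate 5 of the HIRA group at 6 months stood apart. It had 9 counts of Xist against 6286 to 8436 in the other 19, and 2041 counts over the 4 Y genes Ddx3y, Eif2s3y, Kdm5d and Uty against 0 to 13, which goes against its label of female. Comparisons of the markers that use it are given with and without it.

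Of the markers, 6 encode proteins of the duct cell's structure, secretion and fate. Spp1 (chromosome 5, 104435118 to 104441050, all positions GRCm38) encodes osteopontin, a secreted matrix protein that macrophages can also make. Krt19 (chromosome 11, 100140810 to 100148665) and Krt7 (chromosome 15, 101411043 to 101430313) encode keratins of simple ductal epithelium. Sox9 (chromosome 11, 112782224 to 112787760) encodes the transcription factor of the biliary lineage, also present in some periportal hepatocytes. Epcam (chromosome 17, 87635979 to 87651129) encodes an epithelial adhesion molecule, and Cftr (chromosome 6, 18170687 to 18322768) the chloride channel of the apical duct membrane. The other 3 encode surface proteins used to mark progenitor cells. Cd24a (chromosome 10, 43578284 to 43584265) and Ly6d (chromosome 15, 74762056 to 74763620) encode small proteins anchored by a lipid, both also found on lymphoid cells, and Prom1 (chromosome 5, 43993620 to 44102032) encodes the membrane protein CD133.

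The promoters of 3 genes are shown for the results below. Spp1 and Epcam were the pair of markers whose levels moved together most closely across libraries, and Krt23, a keratin gene of a wider biliary list, had the largest guide effect of that list among genes past the test. Each line is the 250 bases upstream of a RefSeq start (GRCm38.p6), written 5′ to 3′ on the strand of the gene, at chr5:104434861-104435110 on the plus strand for Spp1, chr17:87635729-87635978 on the plus strand for Epcam and chr11:99493121-99493370 on the minus strand for Krt23. Capitals mark the motif matches described after them, and RefSeq gives Spp1 a further start that is not shown.
Spp1: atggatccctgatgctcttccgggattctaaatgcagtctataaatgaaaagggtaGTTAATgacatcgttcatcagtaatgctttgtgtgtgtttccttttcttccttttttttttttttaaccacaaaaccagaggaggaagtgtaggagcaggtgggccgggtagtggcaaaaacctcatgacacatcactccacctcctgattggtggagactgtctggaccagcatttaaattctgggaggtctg
Epcam: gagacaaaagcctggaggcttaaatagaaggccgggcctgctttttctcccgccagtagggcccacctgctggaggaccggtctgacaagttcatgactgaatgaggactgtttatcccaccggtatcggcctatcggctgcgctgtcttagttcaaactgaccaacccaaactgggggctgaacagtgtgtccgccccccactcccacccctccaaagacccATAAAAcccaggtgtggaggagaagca
Krt23: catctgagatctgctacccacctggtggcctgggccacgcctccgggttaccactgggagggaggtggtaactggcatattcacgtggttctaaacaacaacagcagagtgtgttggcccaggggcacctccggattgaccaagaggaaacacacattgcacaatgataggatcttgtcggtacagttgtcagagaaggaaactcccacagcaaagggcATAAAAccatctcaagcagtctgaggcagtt
The RefSeq promoter table held 5 of the 9 markers (Spp1, Krt7, Epcam, Prom1 and Cftr). The motifs GTGGGAA for the Notch factor RBPJ, GGAATG for the TEAD factors, GTTAAT for an HNF1 half-site and ACAATGG for SOX factors were searched on both strands, and the TATA-like ATAAAA was added after the sequences had been read. GTTAAT lay 194 bases upstream of the Spp1 start, and 6.44% of 32817 mouse promoter windows hold it. ATAAAA lay 27 bases upstream of Epcam, 7 bases upstream of Krt7, 31 bases upstream of Krt23 and, on the opposite strand, 186 bases upstream of the further Spp1 start, and 17% of windows hold it. The RBPJ, TEAD and SOX motifs, held by 5.42%, 12.6% and 3.02% of windows, were not in the 250-base windows of the 5 markers or of Krt23, which says only that these letters are absent there.

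Per length of exon the markers covered a wide range of levels. The length joins the exons of all annotated transcripts of a gene, 7175 bases over 19 transcripts for Prom1 and 744 over 1 for Ly6d. The order of genes depends on that choice, and the deposited FPKM values were not used for it. In CPM per kilobase of exon, the mean over 20 libraries was 50.1 for Spp1 (23.6 to 79.6), 4.22 for Ly6d (1.15 to 19.8), 2.58 for Cd24a, 2.41 for Prom1 (0.085 to 4.71), 1.75 for Epcam, 1.60 for Sox9, 1.31 for Krt19, 0.207 for Krt7 and 0.0246 for Cftr. Spp1 lay above the next gene in 20 of 20 libraries, and so did Krt19 above Krt7 and Krt7 above Cftr. The neighbours from Ly6d to Krt19 changed places between libraries, since the higher gene of each pair was higher in only 12 to 15 of 20, so their order is within the spread. Cftr had 0 to 9 counts in a library, too few to show any but a large difference.

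At 3 weeks no marker was called between the guides, and 7 of the 9 estimates lay between -0.06 and 0.13 on the log2 scale. None of the 9 passed the test (adjusted p under 0.05 and absolute log2 fold change above 1, edgeR quasi-likelihood), where 0.114% of all genes tested did, and 0 of 9 had an unadjusted p under 0.05, against 8.87% of all genes. DESeq2 and limma-voom also called 0 of 9. The groups overlapped for all 9, while 2.69% of all genes did not overlap. The median log2 fold change of the 9 was 0.00, beside -0.006 over all genes, with 5 of 9 above 0. Leaving out 1 library moved it between -0.08 (without HIRA replicate 2, 3 of 9 above 0) and 0.13 (without Rosa26 replicate 4, 8 of 9), and 2 of 9 were above 0 without Rosa26 replicate 1. Epcam had 66, 64, 83, 117 and 82 counts with the Rosa26 guide and 60, 101, 55, 94 and 104 with the HIRA guide, so both groups held libraries below 70 and above 90. Its log2 fold change was -0.02 ± 0.32 (SE), with a 95% interval for the fold from 0.626 to 1.56. Spp1 gave 1252, 1700, 1796, 2199 and 1586 counts against 1251, 2080, 1342, 1992 and 2331, a log2 fold change of 0.05 ± 0.26 with a 95% interval from -0.49 to 0.59 on the log2 scale. The intervals thus leave room for changes of either sign, and for Krt19, Krt7, Sox9, Cd24a and Ly6d the estimates lay in the same range. Cftr had -0.16 ± 0.70, with a 95% interval for the fold from 0.328 to 2.46.

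Prom1 was the marker with the largest estimate at 3 weeks. Its counts were 172, 375, 268, 140 and 240 with the Rosa26 guide and 332, 245, 397, 482 and 541 with the HIRA guide. Of the 5 HIRA libraries, 3 lay above the highest control, and the groups overlapped. In log2 CPM the means were 3.44 ± 0.58 (SD, n = 5) and 4.17 ± 0.45 (SD, n = 5). The log2 fold change was 0.70 ± 0.48 (adjusted p = 0.753, edgeR), a fold of 1.62 with a 95% interval from 0.814 to 3.23. The spread in that fit is shared with the 6-month groups, and without replicate 5 of the HIRA group at 6 months it was 0.70 ± 0.27 (adjusted p = 0.354, edgeR), with an unadjusted 95% interval for the fold from 1.10 to 2.38 but still not past the test. It was then the 1 marker of 9 with an unadjusted p under 0.05 (9.85% of all genes).

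**Figure D1:**
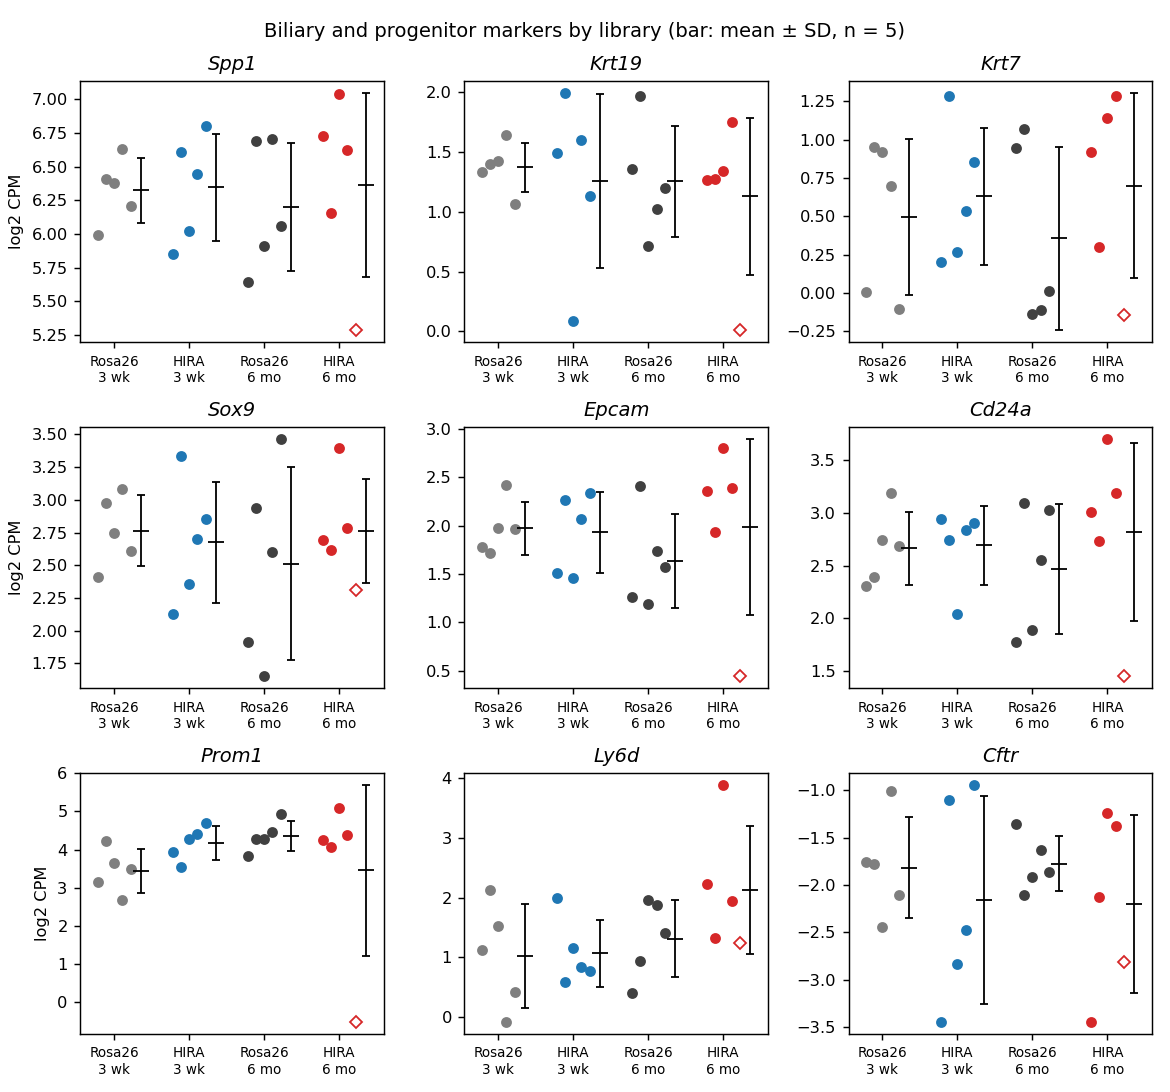
Level of each marker in log2 CPM (y axis, scale set per gene) for the 20 libraries in 4 groups on the x axis. Points are libraries, bars are the mean ± SD of 5 libraries, and the open diamond is replicate 5 of the HIRA group at 6 months, the lowest of all 20 libraries for Spp1, Krt19, Krt7, Epcam, Cd24a and Prom1.

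At 6 months the HIRA guide was likewise without a called marker, although most estimates lay above 0. None of the 9 passed the edgeR test, where 0.332% of all genes did, and DESeq2 and limma-voom also called 0. At an unadjusted p under 0.05 there was 1 of 9, Ly6d, against 15.5% of all genes. The groups overlapped for all 9, while 3.15% of all genes did not overlap. The median log2 fold change of the 9 was 0.22 with 6 of 9 above 0, beside 0.029 over all genes. Without replicate 5 of the HIRA group the median was 0.41 with 8 of 9 above 0, still 0 of 9 were called (0.449% of all genes), and 3 of 9 had an unadjusted p under 0.05 (17.7% of all genes). Without replicate 3 of the HIRA group, the highest library for several markers, the median was 0.03 with 5 of 9 above 0, and these were the lowest and highest medians when each of the 20 libraries was left out in turn. In the same comparison the medians were 0.50 for stellate cell, 0.45 for B cell, 0.40 for T cell and NK cell and 0.32 for endothelial markers. That of Kupffer cell and macrophage markers lay below 0, and not every list is given here. Replicate 3 of the HIRA group also had the highest stellate cell sum and the highest T cell and NK cell sum. The part of these cells in the marker estimates was not tested.

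Epcam and Cd24a had the largest estimates among the markers other than Ly6d. Epcam had 54, 112, 51, 70 and 63 counts with the Rosa26 guide and 129, 82, 166, 105 and 25 with the HIRA guide. The first 4 HIRA libraries lay above 4 of the 5 controls, and the last lay below all of them. In log2 CPM the means were 1.64 ± 0.49 and 1.99 ± 0.91 (SD, n = 5), or 2.37 ± 0.35 over the 4 HIRA libraries without replicate 5. The log2 fold change was 0.48 ± 0.32 (adjusted p = 0.499, edgeR), 0.72 ± 0.25 without that library (adjusted p = 0.141, edgeR) and 0.27 without replicate 3. Cd24a had 78, 181, 84, 125 and 176 counts against 203, 144, 312, 185 and 52. Here too replicate 5 of the HIRA group was the lowest and replicate 3 the highest of the 20 libraries. Its log2 fold change was 0.43 ± 0.32 (adjusted p = 0.563, edgeR), 0.64 ± 0.27 without replicate 5 (adjusted p = 0.210, edgeR) and 0.17 without replicate 3.

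Ly6d had the largest guide effect of the 9 at 6 months, and it leaned on a single library. Its counts were 29, 39, 88, 77 and 56 with the Rosa26 guide and 118, 53, 356, 77 and 45 with the HIRA guide. Replicate 3 of the HIRA group held 356 counts, and 3 of the other 4 lay within the range of the controls. In log2 CPM the means were 1.32 ± 0.65 and 2.13 ± 1.07 (SD, n = 5). The log2 fold change was 1.11 ± 0.48, a fold of 2.15 with a 95% interval from 1.07 to 4.33 (adjusted p = 0.271, edgeR). Without replicate 3 it was 0.33, and without replicate 5 it was 1.30 (adjusted p = 0.158, edgeR). Replicate 3 was also the highest of the 20 libraries for Spp1, Epcam, Cd24a and Prom1.

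Prom1 had 333, 417, 449, 470 and 668 counts at 6 months with the Rosa26 guide and 485, 364, 814, 424 and 12 with the HIRA guide. The value of 12 stood far below the other 19 libraries, whose lowest count was 140. The log2 fold change was -0.21 ± 0.47 with it and 0.10 ± 0.27 without it (adjusted p = 0.890 and 0.909, edgeR), so the sign of the estimate turned on that library. Without HIRA replicate 3 it was -0.56. Spp1 had 1168, 2214, 1394, 2250 and 1454 counts against 2700, 1561, 3164, 2019 and 765, and both the highest and the lowest Spp1 count of the series were in the HIRA group at 6 months. Its log2 fold change was 0.22 ± 0.26 (adjusted p = 0.759, edgeR), 0.41 ± 0.22 without replicate 5 (adjusted p = 0.356, edgeR) and 0.03 without replicate 3. Krt19 ran from 36 to 82 counts with the Rosa26 guide and from 18 to 67 with the HIRA guide, a log2 fold change of -0.09 ± 0.31, or 0.11 without replicate 5. Over all left-out libraries it ran from -0.25 (without HIRA replicate 4) to 0.14 (without Rosa26 replicate 2). Krt7 (18 to 43 against 16 to 51 counts) had 0.36 ± 0.34, Sox9 (71 to 239 against 96 to 252 counts) 0.15 ± 0.29 and Cftr (3 to 7 against 0 to 8 counts) -0.34 ± 0.70 on the log2 scale. Without replicate 5 these were 0.53 ± 0.33 for Krt7, 0.25 ± 0.30 for Sox9 and -0.14 ± 0.72 for Cftr. Without HIRA replicate 3 Sox9 turned to -0.05 and Cftr was -0.80, and without HIRA replicate 4 Krt7 was 0.20. The highest values were 0.58 for Krt7 (without Rosa26 replicate 2), 0.45 for Sox9 (without Rosa26 replicate 5) and -0.0054 for Cftr (without HIRA replicate 1).

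**Figure D2:**
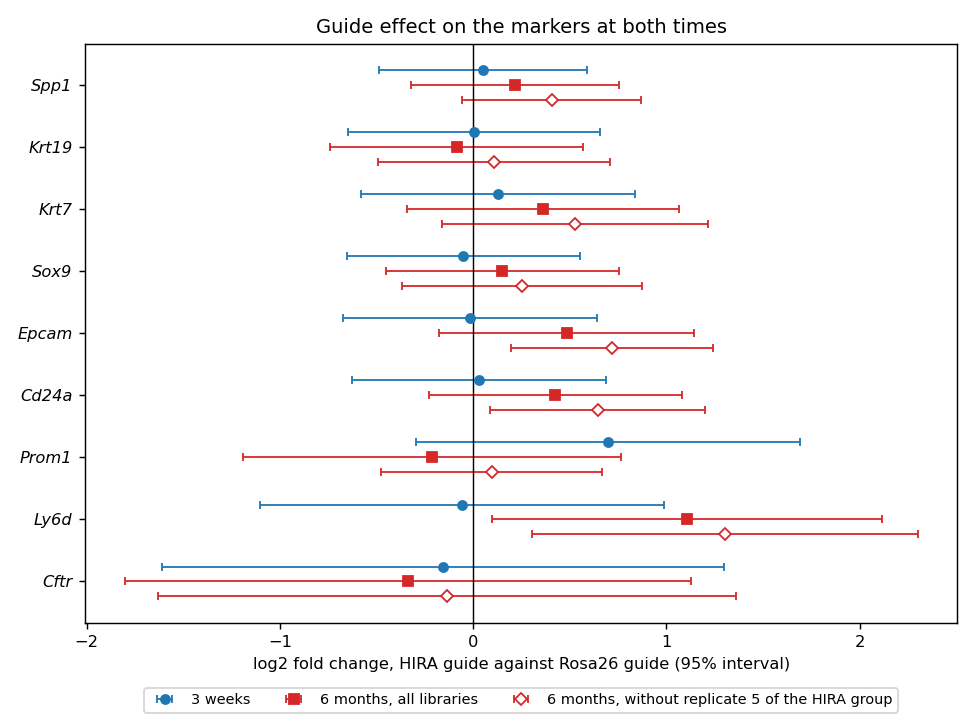
Log2 fold change of the HIRA guide against the Rosa26 guide (x axis) for each marker (y axis), from the edgeR fit, with 95% intervals. Circles are 3 weeks, squares 6 months and open diamonds 6 months without replicate 5 of the HIRA group; at 6 months the unadjusted interval lies above 0 for Ly6d in both, and without that library also for Epcam and Cd24a, but none passed after adjustment.

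Averaged over both times, 0 of 9 markers passed the edgeR test (0.468% of all genes), also by DESeq2 and limma-voom, and 0 of 9 had an unadjusted p under 0.05 (16.6% of all genes). The median was 0.23 with 7 of 9 above 0, and Ly6d had the largest estimate, 0.52 ± 0.35 (adjusted p = 0.484, edgeR). Without replicate 5 of the HIRA group at 6 months the median was 0.33 with 8 of 9 above 0, and 0 of 9 had an unadjusted p under 0.05 (18.9% of all genes). The averaged estimate then moved from 0.13 to 0.23 for Spp1, from 0.05 to 0.10 for Sox9, from 0.23 to 0.35 for Epcam, from 0.24 to 0.40 for Prom1 and from -0.25 to -0.15 for Cftr, and that of Krt19 turned from -0.04 to 0.06. Without replicate 3 of that group instead, the median was 0.07 with 6 of 9 above 0, and the averaged estimate was 0.14 for Ly6d, 0.12 for Epcam, 0.10 for Cd24a, 0.07 for Prom1 and 0.04 for Spp1. The guide effect itself did not differ detectably between the times. For this difference 0 of 9 markers and 0% of all genes tested passed by edgeR, and 0 of 9 had an unadjusted p under 0.05 against 6.62% of all genes. The largest estimates were 1.16 ± 0.70 for Ly6d (adjusted p = 0.816, edgeR) and -0.91 ± 0.67 for Prom1 (adjusted p = 0.856, edgeR), the latter -0.60 without replicate 5. Without replicate 3 of the HIRA group at 6 months these were 0.39 and -1.26. For Epcam the difference was 0.50 with all libraries, 0.74 without replicate 5 (adjusted p = 0.644, edgeR) and 0.29 without replicate 3. Without replicate 5 it was the 1 marker of 9 with an unadjusted p under 0.05 for this difference (7.64% of all genes). Without replicate 5 the difference moved from 0.17 to 0.36 for Spp1, from 0.40 to 0.61 for Cd24a, from 0.23 to 0.40 for Krt7 and from 0.20 to 0.30 for Sox9, and it turned from -0.09 to 0.10 for Krt19 and from -0.18 to 0.02 for Cftr. Without replicate 3 it was -0.01 for Spp1, 0.14 for Cd24a, 0.0069 for Sox9 and -0.64 for Cftr.

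Time after injection changed no marker past the test either. In Rosa26 controls 0 of 9 passed by edgeR (0.162% of all genes), 0 of 9 had an unadjusted p under 0.05 (12.8% of all genes), and DESeq2 and limma-voom called 0. The Prom1 estimate was 0.88 ± 0.48 on the log2 scale (adjusted p = 0.470, edgeR), from a mean of 3.44 to 4.36 log2 CPM. Of its 5 control libraries at 6 months, 4 lay above the highest at 3 weeks. The same estimate had adjusted p = 0.117 (edgeR) without replicate 5 of the HIRA group at 6 months, then the 1 marker of 9 with an unadjusted p under 0.05 (14.3% of all genes), and adjusted p = 0.0222 with DESeq2 on the Rosa26 libraries alone, where its log2 fold change of 0.89 was under the fold threshold. In HIRA livers 0 of 9 passed by edgeR (0.0569% of all genes), and DESeq2 and limma-voom called 0. There Ly6d, the 1 marker of 9 with an unadjusted p under 0.05 (8.95% of all genes), had 1.37 ± 0.49 (adjusted p = 0.389, edgeR), or 1.57 without replicate 5 and 0.61 without replicate 3 of the 6-month group. It was also the 1 marker with an unadjusted p under 0.05 without replicate 5 (10.1% of all genes). Without replicate 5 the other estimates moved from 0.09 to 0.28 for Spp1, from 0.20 to 0.44 for Epcam, from 0.26 to 0.48 for Cd24a, from 0.12 to 0.28 for Krt7 and from 0.08 to 0.18 for Sox9. Those of Prom1 and Krt19 turned from -0.03 to 0.28 and from -0.16 to 0.03, and that of Cftr moved from -0.20 to 0.00089. Without replicate 3 Spp1 had -0.08, Epcam -0.0064, Cd24a 0.01 and Prom1 -0.37. These comparisons share libraries with those between guides.

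The markers did vary together from liver to liver. After the mean of its group was subtracted from each library's log2 CPM, Pearson's r over 20 libraries was tested for all 36 pairs with 100000 permutations of libraries within groups, and p-values were adjusted over the 36. Of these, 10 passed an adjusted p under 0.05, and 9 of the 10 also by Spearman's rho. All 10 were among the 15 pairs of Spp1, Krt19, Krt7, Sox9, Epcam and Cd24a. None of the 21 pairs with Prom1, Ly6d or Cftr passed (smallest adjusted p = 0.0741, permutation). All values share the same library scaling. The tests used all 20 libraries and were not repeated without replicate 5 of the HIRA group at 6 months. Without it, r fell from 0.80 to 0.66 for Spp1 with Cd24a and from 0.74 to 0.57 for Krt19 with Epcam. It also fell from 0.71 to 0.54 for Krt19 with Cd24a and from 0.65 to 0.54 for Krt7 with Epcam. For Sox9 with Spp1 it went from 0.66 to 0.67, and for Sox9 with Epcam from 0.64 to 0.70.

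Spp1 and Epcam were the closest pair, with r = 0.93 and rho = 0.90 (adjusted permutation p = 0.00072 for both), and r was 0.89 without the 2 libraries farthest from the median of Spp1, the first gene of the pair, and 0.88 without replicate 5 of the HIRA group at 6 months. Epcam and Cd24a had r = 0.88 and rho = 0.78 (adjusted permutation p = 0.00126 and 0.0063), with r = 0.76 without the 2 libraries farthest for Epcam and 0.78 without replicate 5. The keratins Krt19 and Krt7 had r = 0.70 and rho = 0.68 (adjusted permutation p = 0.00552 and 0.0115), with 0.68 without the 2 farthest for Krt19 and 0.62 without replicate 5. Sox9 and Cd24a had r = 0.71 and rho = 0.70 (adjusted permutation p = 0.0156 and 0.022), with 0.67 without the 2 farthest for Sox9 and 0.74 without replicate 5. High values of the adhesion gene Epcam, the matrix gene Spp1 and Cd24a thus lay in the same livers of a group. Ly6d shared little of this, with r from -0.00 to 0.28 against the 6 genes above. Epcam and Prom1 had r = 0.71 and rho = 0.36 (adjusted permutation p = 0.145 and 0.216), which fell to 0.09 without the 2 farthest libraries for Epcam and 0.06 without replicate 5 and so rested on those samples.

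**Figure D3:**
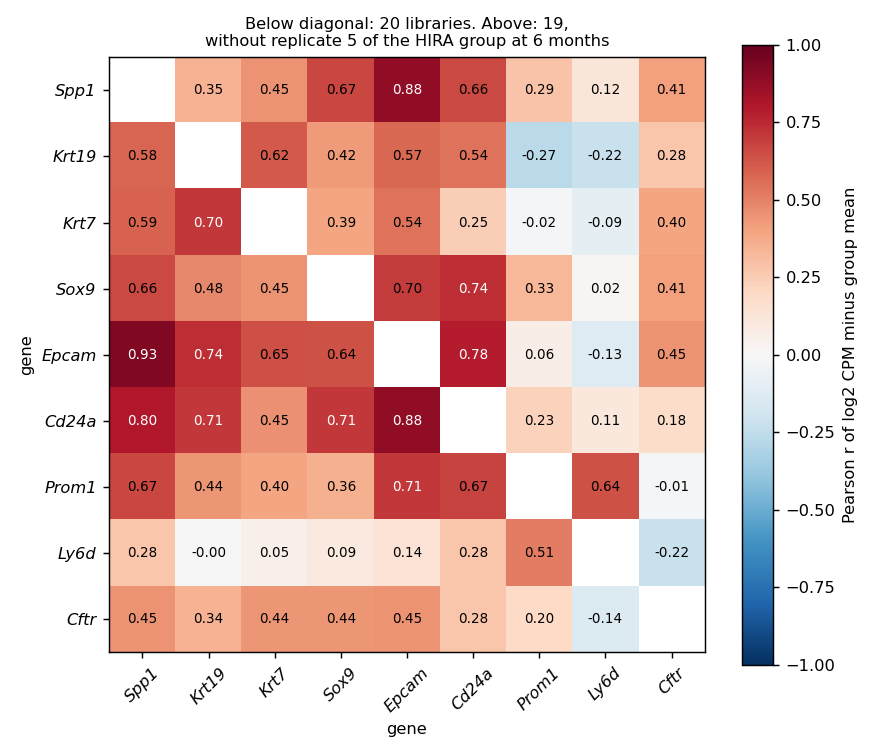
Pearson's r between markers of log2 CPM minus the group mean, on a colour scale from -1 to 1, over 20 libraries below the diagonal and over 19 without replicate 5 of the HIRA group at 6 months above it. Spp1 with Epcam stays at 0.93 and 0.88, while the values of Prom1 with Epcam fall from 0.71 to 0.06.

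Among 12903 genes with a mean of at least 1 CPM, the genes most like each marker by the same residual r over 20 libraries are given as a description. Syt7 and Rab27b came first and second for Spp1 (0.94 and 0.93), followed by Anxa13 (0.91), Scara3 and Ehf. Rab27b, Syt7 and Scara3 were also the first 3 for Epcam (0.95, 0.94 and 0.94), followed by Tspan8 and Vsig10. Tspan8 and Vsig10 were again among the 5 for Cd24a, after Chmp4c (0.93), Ddr1 and Mfge8. Sox9 was most like Sort1 (0.86), followed by Myh10, Tarbp1, Zfp62 and Kifc3. Krt19 was most like Mapk12 (0.81), and also like St14, Zkscan17 and Ephb4. Krt7 was most like Lrrn4 (0.79), a gene of the mesothelial list, which covers the cells of the liver surface, followed by Wnt5a, H2afy2, Sema3f and Sos2. Ly6d was most like Nras (0.82), followed by Rps15a, Kctd5, Myl6 and Tpm1. For Prom1 the first genes were Sult2a2 and Xist (0.93 for both), then Itga6, Sybu and Rtn4, and the values of the first 2 fell to 0.29 and 0.15 without replicate 5 of the HIRA group at 6 months. Cftr lay below 1 CPM and was left out of this search.

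Replicate 5 of the HIRA group at 6 months was low in several cell type lists as well as in the markers. The 9 markers summed to 52.3 CPM there and to 79.2 to 215 CPM in the other 19 libraries. The 14 Kupffer cell and macrophage markers summed to 268 CPM against 394 to 2542, the 6 B cell markers to 9.81 against 10.6 to 37.2, and hepatocyte markers to 142579, the 13th from the lowest. Replicate 3 of the same group, highest for Ly6d, Epcam and Cd24a, also had the highest stellate cell sum, 902 CPM over 10 genes, and the highest T cell and NK cell sum, 24.7 CPM over 6 genes. The summed pancreatic acinar markers, of which 3 of 12 genes passed the count filter, ran from 5.83 to 11.6 CPM, and the 6 mesothelial markers from 1.52 to 19.8 CPM over all libraries. The part of these cell types in the marker levels was not tested.

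A wider list of 28 biliary genes, chosen like the markers with earlier results of these data known, held few genes past the test but among them Krt23 (chromosome 11, 99477974 to 99493137), which encodes a keratin of the same acidic type as Krt19. All 28 genes were tested. At 3 weeks 0 passed an adjusted p under 0.05 by edgeR (0.197% of all genes), and 6 had an unadjusted p under 0.05 (8.87% of all genes). At 6 months 1 was higher and 0 lower (1.31% of all genes), with 6 at an unadjusted p under 0.05 (15.5% of all genes). Averaged over both times 2 were higher and 1 lower (2.85% of all genes), with 7 at an unadjusted p under 0.05 (16.6% of all genes). Without replicate 5 of the HIRA group at 6 months, 1, 2 and 3 were higher and 0, 0 and 1 lower at 3 weeks, at 6 months and averaged, where 0.454%, 1.74% and 3.92% of all genes passed. The medians of the list were 0.08, 0.20 and 0.21 on the log2 scale, beside -0.006, 0.029 and 0.020 over all genes.

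Krt23 had 22, 22, 18, 18 and 33 counts with the Rosa26 guide at 3 weeks and 163, 58, 84, 90 and 103 with the HIRA guide. Every HIRA library lay above every control. At 6 months it had 52, 30, 29, 29 and 102 counts against 248, 256, 157, 212 and 33. The first 4 HIRA libraries lay above all controls, and replicate 5 lay among them. In log2 CPM the means were 0.19 ± 0.35 and 2.16 ± 0.52 at 3 weeks and 1.00 ± 0.77 and 2.76 ± 1.12 at 6 months (SD, n = 5). Averaged over both times the log2 fold change was 1.99 ± 0.30 (adjusted p = 0.00175, edgeR), a fold of 3.96 with a 95% interval from 2.56 to 6.14. It passed in all 20 fits that each left out a library (adjusted p = 0.000116 to 0.00454, edgeR). At 3 weeks alone it was 2.10 ± 0.44 (adjusted p = 0.0522, edgeR), which passed in 3 of 20 fits that each left out a library, at 0.0103 without replicate 5 of the HIRA group at 6 months, and missed in 17 (adjusted p up to 0.143, edgeR). It also passed in 7 of 13 other settings of tool, scaling, filter or design, some of them also without replicate 5, with adjusted p from 1.24e-10 to 0.218 over edgeR, DESeq2 and limma. At 6 months alone it was 1.87 ± 0.42 (adjusted p = 0.030, edgeR), and 2.13 ± 0.33 without that replicate (adjusted p = 0.00505, edgeR). The 6-month call was lost when Rosa26 replicate 1, 2, 3 or 4 or HIRA replicate 1 or 2 of that time was left out (adjusted p = 0.0579 to 0.0984, edgeR) and with limma-voom (adjusted p = 0.0693). Krt19 and Krt7, the keratins among the 9 markers, had averaged estimates of -0.04 ± 0.22 and 0.24 ± 0.24 (0.06 and 0.33 without replicate 5), both below the lower bound of the Krt23 interval on the log2 scale, 1.35.

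**Figure D4:**
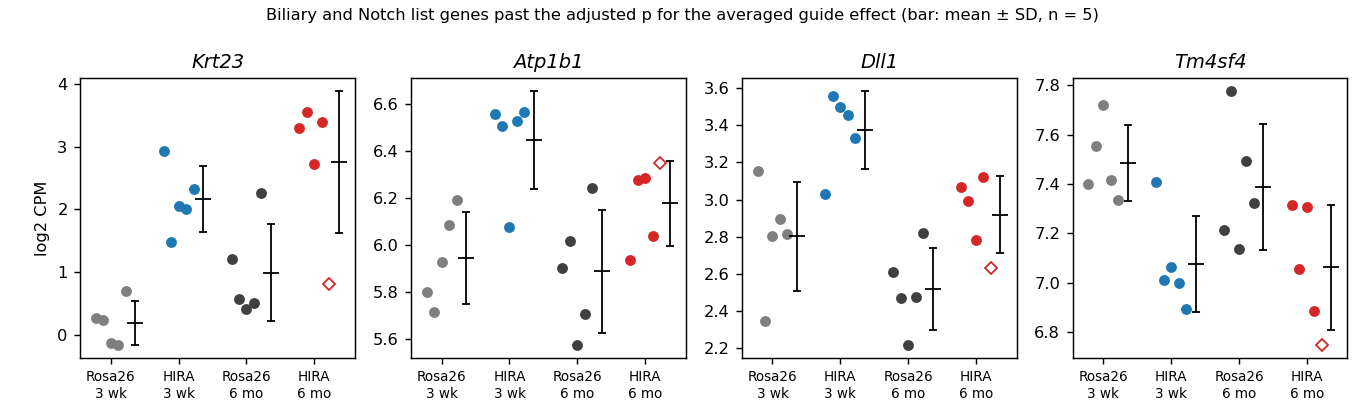
Level in log2 CPM (y axis, scale set per gene) of Krt23, Atp1b1, Dll1 and Tm4sf4 in the 4 groups (x axis), with bars for mean ± SD of 5 libraries. For Krt23 all 5 HIRA libraries at 3 weeks and 4 of 5 at 6 months lie above the controls of their time, and the open diamond is replicate 5 of the HIRA group at 6 months.

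With all libraries, the other genes of the wider list that passed the adjusted p between the guides by edgeR changed by less than the fold threshold. Atp1b1, a subunit of the sodium pump, was higher with the HIRA guide by 0.39 ± 0.09 averaged over both times (adjusted p = 0.0193, edgeR). Tm4sf4, a tetraspan membrane protein of liver and gut, was lower, with -0.37 ± 0.09 (adjusted p = 0.037, edgeR), and it missed an adjusted p under 0.05 in 9 of 20 fits that left out a library (adjusted p up to 0.074). Cdh1, which encodes the epithelial cadherin of duct cells and periportal hepatocytes, passed between the guides only in fits without replicate 5 of the HIRA group at 6 months. It had 216, 473, 178, 212 and 549 counts with the Rosa26 guide at 6 months and 1116, 435, 1341, 486 and 162 with the HIRA guide. Its log2 fold change there was 1.04 ± 0.37 with all libraries (adjusted p = 0.165, edgeR) and 1.28 ± 0.31 without replicate 5 (adjusted p = 0.0374, edgeR). In Rosa26 controls all 5 Cdh1 values at 6 months lay below the 588 to 923 counts at 3 weeks, a log2 fold change of -1.30 ± 0.37 (adjusted p = 0.121, edgeR; 0.039 without that replicate). With all libraries this change with time passed by DESeq2 (adjusted p = 0.0231), and it passed by DESeq2 on the Rosa26 libraries alone (adjusted p = 0.00109).

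**Figure D5:**
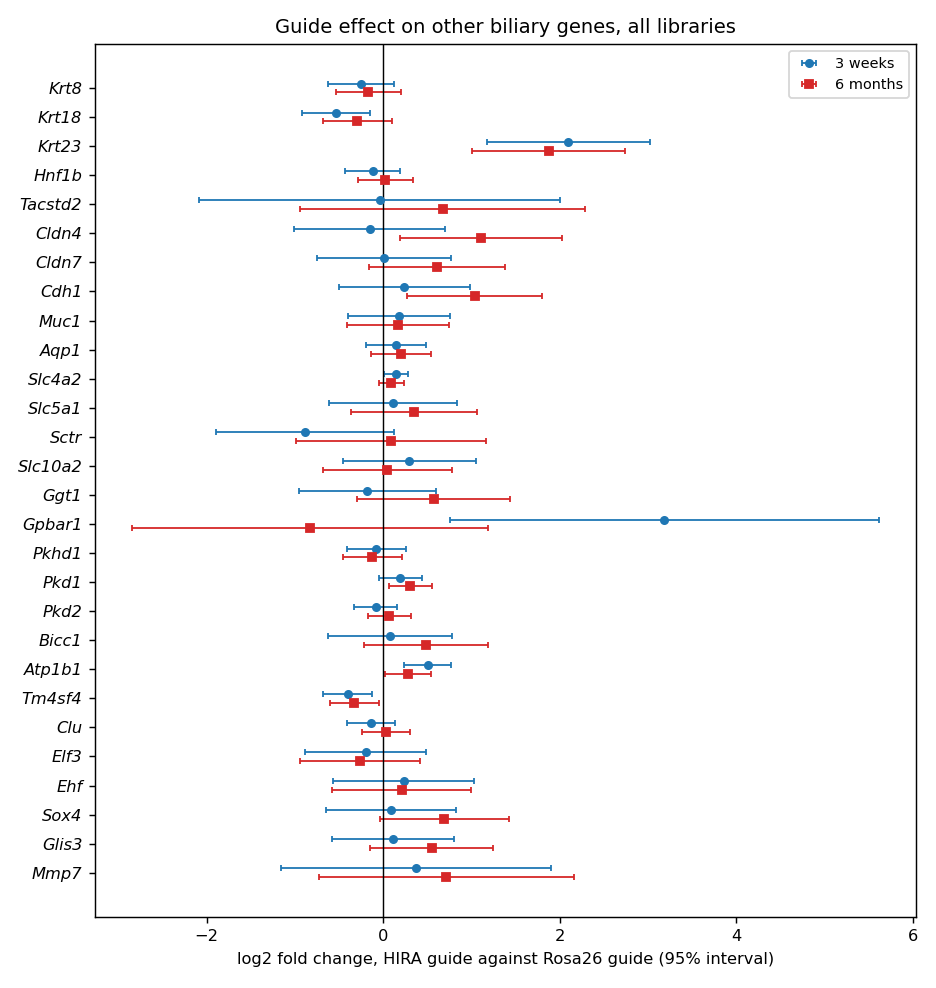
Log2 fold change of the HIRA guide against the Rosa26 guide (x axis) for the 28 other biliary genes (y axis) at 3 weeks (circles) and 6 months (squares), with 95% intervals from all libraries. Krt23 stands at 2.10 and 1.87, and the wide intervals of Gpbar1 are those of a gene that did not pass the test (3.19 at 3 weeks, adjusted p = 0.389, edgeR).

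Of the pathways that set biliary fate, Notch signalling passes from ligands of the Jagged and Delta families through receptors to RBPJ and the HES and HEY factors. Of 15 Notch genes tested, 0 passed an adjusted p under 0.05 by edgeR at 3 weeks or at 6 months (0.197% and 1.31% of all genes), and 1 passed averaged over both times (2.85% of all genes). At an unadjusted p under 0.05 there were 1, 2 and 3 of 15, beside 8.87%, 15.5% and 16.6% of all genes. The gene past the adjusted p was the ligand Dll1, with 174, 100, 149, 163 and 149 counts at 3 weeks for the Rosa26 guide and 175, 249, 232, 248 and 209 for the HIRA guide. At 6 months it had 141, 117, 106, 118 and 152 against 212, 173, 164, 176 and 120 counts. Its averaged log2 fold change was 0.49 ± 0.10 (adjusted p = 0.0123, edgeR), and it passed in all 20 fits that left out a library. Of the 17 Hippo-YAP genes, which include the co-activators Yap1 and Wwtr1 and their targets, 0 passed in the guide comparisons by edgeR, with 1 at 3 weeks, 3 at 6 months and 3 averaged over both times at an unadjusted p under 0.05, beside the same 8.87%, 15.5% and 16.6% of all genes.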

How the data were processed

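The authors trimmed the reads with Trim Galore, aligned them with STAR to the mouse genome mm10, and deposited a table of raw gene counts, used here unchanged. Their methods name HOMER for the counts and the submitters' processing notes list HTSeq and Cufflinks, so the counter, and whether it used the strand of the directional libraries, are not settled. The authors also deposited FPKM values, which had 629498 blank cells, 28812 of them for genes with counts in that library, and were used only as an alternative.

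Groups came from the sample titles. Nothing says more of the replicates than that they are independent, and p-values measure the spread between these animals. No 2 libraries were identical or agreed within sampling noise. Genes with at least 10 counts in total were tested with edgeR 4.0.16 (glmQLFit and glmQLFTest, TMM, R 4.3.3) over all 20 libraries with a mean for each of 4 groups, and p-values were adjusted by Benjamini-Hochberg over all genes. A called gene had an adjusted p under 0.05 and an absolute log2 fold change above 1, as in the study, which used DESeq2. The fit was also run on simulated counts with changes above the fold threshold, which does not show its power for smaller changes. Log2 CPM used a prior count of 2. DESeq2 1.42.0, limma 3.58.1, other scalings, filters and left-out libraries were alternatives. Gene positions are from GENCODE M21, which matched 54587 of 55421 identifiers (98.5%), and genes that overlap a marker held at most 2.66% of its counts.

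The markers, lists and tests were chosen with earlier results of these data known. The text names all 9 markers, up to 5 genes per other list and comparison past an adjusted p under 0.05, the 5 genes most like each marker (Cftr, under 1 CPM on average, was not searched, and 1 gene is not reported here), and genes that check the labels. Gpbar1 was named after its value was seen, and Cdh1 because it passed without 1 library. Intervals on counts of single genes come from the fit.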

Additional observations from a re-analysis of the deposited data

Results flagged for a closer look

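In each of the 4 groups, each marker was examined for a library far from the other 4. Of the 36 groups tested, 3 held such a library, and chance gives about 1 in 20 for a single group. The 36 are not independent, since the markers vary together and come from the same libraries. The count therefore cannot be set against that rate. In the HIRA group at 6 months, replicate 5 had 0.0095 log2 CPM of Krt19 (18 counts), and the nearest other library had 1.26. The same library had -0.51 log2 CPM of Prom1 (12 counts), and the nearest other had 4.06. In the HIRA group at 3 weeks, replicate 3 had 2.04 log2 CPM of Cd24a (83 counts), and the nearest other had 2.74.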

How the results depend on the processing

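The count of called markers was 0 of 9 in all 6 comparisons and in every setting tried with the fold threshold, namely other scalings, filters, DESeq2, limma-voom, only the libraries compared, log2(FPKM + 1) and log2(FPKM + 0.1), and each of the 20 libraries left out (0 to 0). Without the fold threshold, which was tried in the reported fit, it was also 0, but Prom1 between the times in Rosa26 controls had adjusted p = 0.0222 with DESeq2 on those libraries alone and 0.0334 with DESeq2 without HIRA replicate 5 at 6 months (0.89 in both). The guide effect averaged over the times and the change of that effect between the times draw on all groups, so they had no fit on only the libraries compared. Of 1740 recomputed log2 fold changes, 122 had another sign than the reported one; these belong to 32 of 54 estimates, each smaller than its standard error and at most 0.24 in size, and were not counted as changes of direction. Leaving out a library moved the 6-month guide effect of Ly6d between 0.33 (without HIRA replicate 3) and 1.30, of Epcam between 0.27 and 0.74, of Prom1 between -0.56 and 0.10 and of Cd24a between 0.17 and 0.64. With DESeq2 and without HIRA replicate 5 at 6 months, a setting added after the data were seen, the smallest adjusted p of a guide effect on a marker was 0.0675 (Epcam, 0.70), and Ly6d had 0.0793. The labels do not say what a replicate number shares, and same-numbered libraries had correlations of their deviations from -0.31 to 0.33, above 0.1 in 14 of 30 pairs. With the replicate block 0 of 9 markers were called, with or without that library, and a library correlated best with its own number in 21 of 60 cases, where 1 in 5 of the libraries it was compared with bore its number. Krt23 at 6 months had adjusted p = 0.176 when only the libraries of that time were fitted by edgeR, a fit that called 0 of all genes tested. The depth limits Cftr, with at most 9 counts a library.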

Other observations

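Lists of other liver cell types were measured in the same fit, by the HIRA guide against the Rosa26 guide at 6 months. Of the 12 hepatocyte markers, Cyp3a11, a drug-metabolising cytochrome, was higher by 1.02 ± 0.17 (adjusted p = 0.0138, edgeR), and the other 11 did not pass. All 10 stellate cell markers had estimates above 0 (median 0.50), and so did all 7 endothelial markers (median 0.32), all 6 B cell markers (median 0.45) and all 6 T cell and NK cell markers (median 0.40), and none of these genes passed an adjusted p under 0.05 by edgeR, where 1.31% of all genes did. At an unadjusted p under 0.05 there were 2 of 10, 3 of 7, 2 of 6 and 0 of 6, beside 15.5% of all genes, and without replicate 5 of the HIRA group 8, 5, 5 and 2, beside 17.7%. The median over all genes was 0.029. Replicate 3 of the HIRA group had a stellate cell sum of 902 CPM, against 345, 367, 396 and 217 in its other libraries. The controls of that time had 207 to 373 CPM. Its T cell and NK cell sum was 24.7 CPM, against 3.15 to 21.7 in those controls. The medians of these lists without replicate 3 are not given here. Of 14 Kupffer cell and macrophage markers 5 were above 0 (median -0.12), or 11 without replicate 5 of the HIRA group (median 0.10), and none passed (2 at an unadjusted p under 0.05 with all libraries). None of the 7 erythroid, 6 mesothelial and 7 neutrophil markers passed at 6 months, with 1, 0 and 1 at an unadjusted p under 0.05. Averaged over both times, the neutrophil granule gene Ngp had a log2 fold change of -2.89 (adjusted p = 0.0408, edgeR). Ngp had 173 counts in Rosa26 replicate 3 at 3 weeks and 110 in Rosa26 replicate 3 at 6 months, against 4 to 11 in the other 8 controls and 1 to 8 in the 10 HIRA libraries. The summed neutrophil markers were 65.4 and 37.3 CPM in those 2 controls and 5.24 to 14.6 CPM in the other 8. Without replicate 5 of the HIRA group at 6 months no neutrophil marker passed.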
